A study of Mus musculus with 10 samples.

Results

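The comparison described here sets a line carrying the first hairpin against Slpi (shSlpi-1) beside the line carrying the control hairpin (shRenilla). Its members were chosen by the column names of the deposited table and are 4 of the 10 RNA-seq libraries of the series, namely libraries A and B of each line. Both lines were made by infecting clone 4T1-T, a population grown from an isolated cell of the mouse mammary carcinoma line 4T1, with a short hairpin RNA. The shRenilla hairpin is directed against Renilla luciferase, a gene that mouse cells do not carry. The other 6 libraries carry a second hairpin against Slpi (shSlpi-2) or 1 of 2 hairpins against Serpine2 (shSerpine2-1 and shSerpine2-2), again as A and B. Every group, the control included, therefore shares the clone, the culture medium and the presence of a hairpin. A line stands for 1 clone and 1 hairpin, and the cells were grown without the stroma of a tumour. Whether A and B of a line were separate cultures is not stated, and a p-value here therefore weighs a difference against a spread that may be technical only.

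Slpi encodes secretory leukocyte peptidase inhibitor, a small secreted protein built of whey acidic protein (WAP) domains. Epithelial cells release it, and it blocks serine proteases of neutrophils such as elastase and cathepsin G and shields progranulin from cleavage. Serpine2, also called protease nexin 1, is a secreted serpin that inhibits thrombin and plasminogen activators. In the study, both genes were followed for vascular mimicry, the formation of blood-carrying channels lined by tumour cells instead of endothelium. The question of the comparison is which transcripts differ in the clone when Slpi is reduced.

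The 4 libraries held 16686493 to 17920147 reads, within the 15877431 to 24026620 of the series. Rn45s, the ribosomal RNA precursor, took 1.96% and 1.89% of the reads of shSlpi-1 libraries A and B, 1.00% and 1.21% of those of shRenilla, and 6.88% and 6.91% of those of shSlpi-2. At least 1 read was found for 18366 and 17895 gene entries in the shSlpi-1 libraries and for 15887 and 16040 in the shRenilla libraries. In all, 1045 entries had reads in both shSlpi-1 libraries and none in either shRenilla library, and 83 showed the reverse. Entries too low to be tested took 0.106% and 0.0975% of the reads with shSlpi-1 and 0.0638% and 0.0665% with shRenilla. How many of the 1045 and 83 entries are among them was not counted. The carcinoma identity of the cells was checked with epithelial markers. Cdh1, which encodes E-cadherin, had 9519.8 and 9155 normalized reads with shRenilla and 11979 and 12296 with shSlpi-1, and Epcam had 1300.1 and 1313 and 1858 and 1844. Of the defining markers of other cells, Pecam1, Cdh5, Ptprc, Tyrobp and Dcn stayed below 10 normalized reads in each of the 4 libraries, with Tyrobp at 0 in 3 of them. Pdgfra, a fibroblast receptor that some carcinoma cells also make, had 896 and 873 with shRenilla and 584 and 639 with shSlpi-1. The endothelial list had 5 of 19 members high enough to test, the leukocyte list 1 of 21 and the fibroblast list 3 of 15. Summed over the list, normalized reads were 1699 and 1777 for endothelial markers with shRenilla against 1551 and 1650.2 with shSlpi-1. Leukocyte markers summed to 153 and 158 against 209 and 174. Fibroblast markers summed to 5156 and 4803 against 4701 and 4697.

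Slpi mRNA was strongly reduced in the line that carries the hairpin against it. Slpi, at chr2:164354070-164389095 on the minus strand of mm10, had 1189 and 1313 normalized reads in shRenilla libraries A and B and 145 and 147 in shSlpi-1 libraries A and B. The level with shSlpi-1 was 0.117 of the control level, an 8.58-fold reduction. On the log2(normalized reads + 1) scale used for all fold changes, the change was -3.09 ± 0.12 (SE, adjusted p = 1.4e-10), by limma with Benjamini-Hochberg adjustment over the 12299 genes tested. The groups did not overlap. With shSlpi-2, Slpi was lower still, at 60.9 and 75.8, and the difference between the Slpi hairpins was 1.09 ± 0.12 (SE, adjusted p = 1.3e-05). Slpi also fell with shSerpine2-1, to 326 and 414 (-1.76 ± 0.12 SE, adjusted p = 2.0e-07), and it stood at 1111 and 1218 with shSerpine2-2.

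Serpine2, which is not the target of this hairpin, fell too. Serpine2, at chr1:79794197-79861180 on the minus strand, had 3256 and 3145 normalized reads with shRenilla and 1342 and 1331 with shSlpi-1, a change of -1.26 ± 0.07 (SE, adjusted p = 1.3e-08) by limma. Both shSlpi-1 libraries lay below both control libraries. It stood at 1553 and 1731 with shSlpi-2, at 128 and 139 with shSerpine2-1 and at 489 and 514 with shSerpine2-2. The plot of genes by library shows both targets beside 6 of the genes described next.

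**Figure D1:**
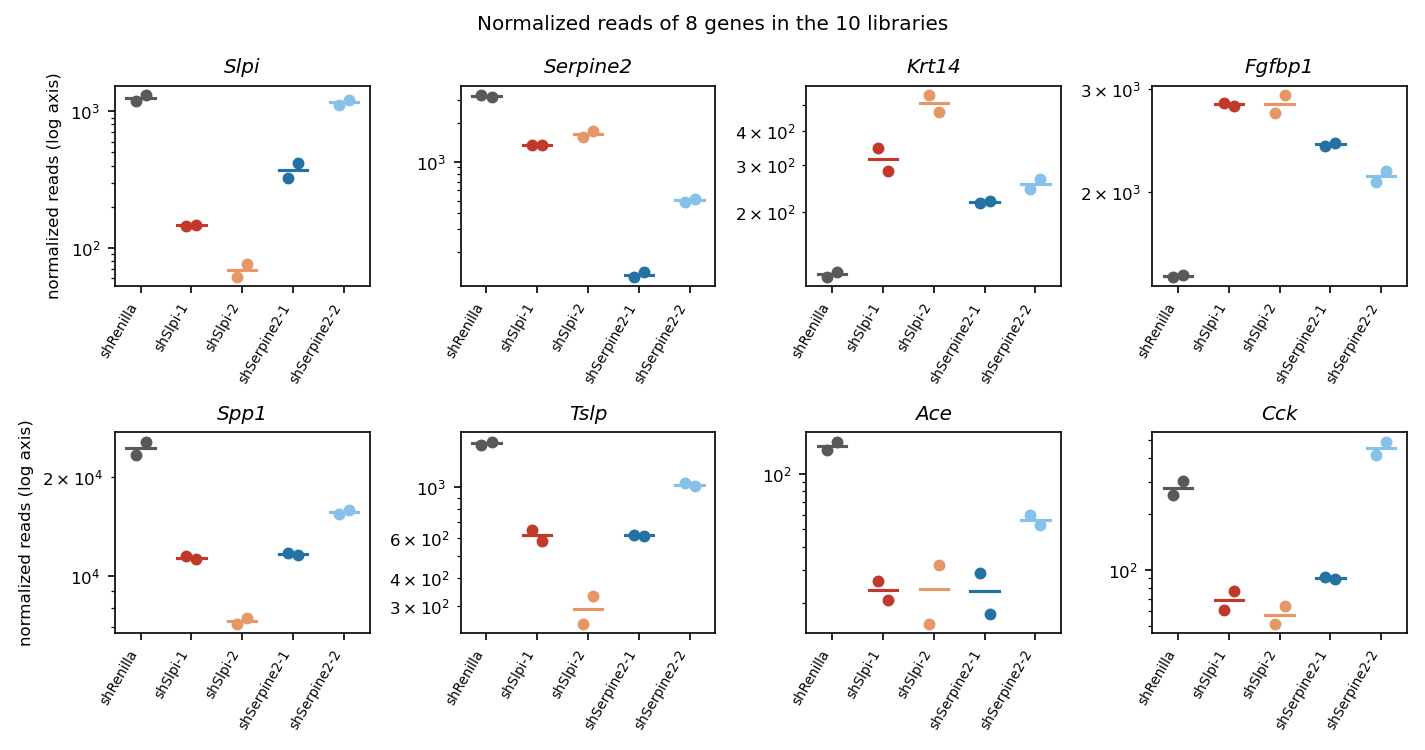
Normalized reads (log axis) of Slpi, Serpine2, Krt14, Fgfbp1, Spp1, Tslp, Ace and Cck in the 10 libraries, 2 per line; points are libraries and short lines are group means. Slpi drops from 1189 and 1313 with shRenilla to 145 and 147 with shSlpi-1, and for all 8 genes the shSlpi-1 and shRenilla points lie apart. For Krt14, Fgfbp1, Tslp, Ace and Cck the rule for naming them required this.

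Beyond the target, many genes differed by a small amount. At an adjusted p under 0.05, 2156 of 12299 genes tested (17.5%) changed, 941 higher (7.65%) and 1215 lower (9.88%) with shSlpi-1. The counts of list members against shRenilla given below are to be read beside these shares. Those of the leave-out fits belong beside the smaller totals of these fits. The median fold of the genes that changed was 1.24, and 85 genes (0.691%) moved at least 2-fold, 35 higher (0.285%) and 50 lower (0.407%). The groups did not overlap for any of the 2156 genes, which they also did not for 60.2% of all genes tested. Leaving out shRenilla A reduced the number to 1156, shRenilla B to 814, shSlpi-1 A to 1258 and shSlpi-1 B to 919, and it was 3323 when the shSlpi-2 libraries, which differ most between A and B, were left out of the fit. Scaling each library to its reads without Rn45s turned the balance to 1192 higher and 1006 lower, while 573 genes, 215 higher and 358 lower, were called in the fit and in all 16 alternatives.

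**Figure D2:**
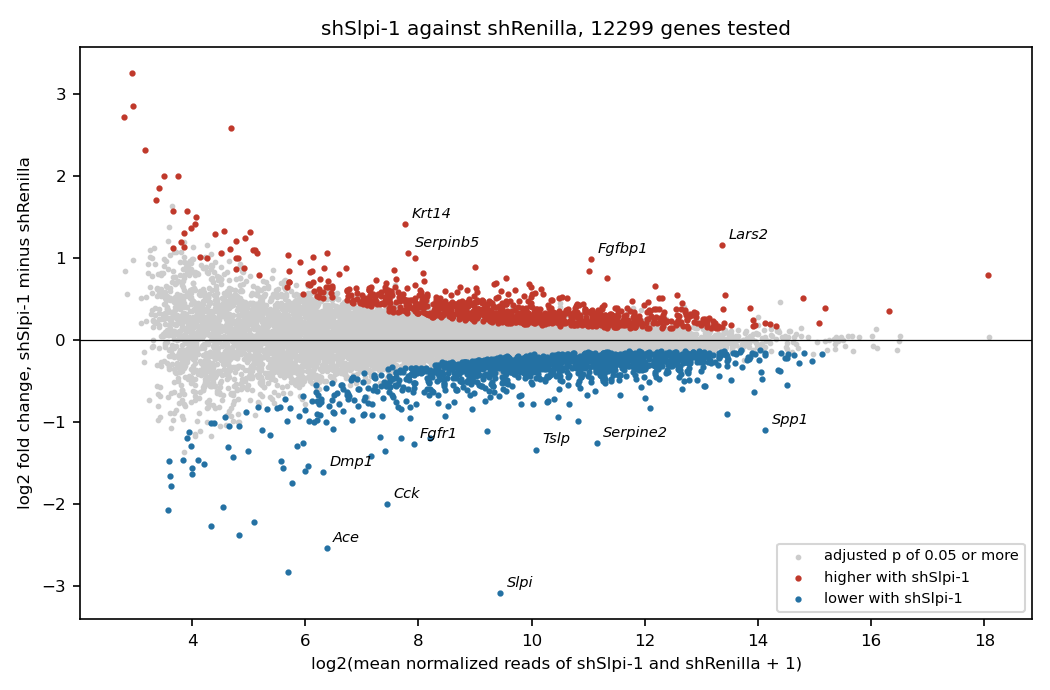
Log2 fold change (shSlpi-1 minus shRenilla) against log2 of the mean normalized reads of the 4 libraries for the 12299 genes tested; red and blue points passed an adjusted p under 0.05. Of the labelled genes, Slpi lies lowest at -3.09 and Krt14 highest at 1.41.

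After Slpi, the deepest falls among genes of at least 50 normalized reads were in Prl3d2, Ace and Cck. Prl3d2, a placental prolactin-family hormone gene with near-identical copies that can share reads, went from 82.2 and 97.0 normalized reads to 10.1 and 13.5 (-2.83 on the log2 scale, limma adjusted p = 6.5e-06). Ace, which encodes angiotensin-converting enzyme (chr11:105967945-105989964), went from 134 and 149 to 26.2 and 20.8, a change of -2.54 ± 0.31 (SE, adjusted p = 4.3e-05). Cck, the gene of the peptide hormone cholecystokinin (chr9:121489824-121495694), went from 253 and 302 to 60.5 and 77.0, a change of -2.0 ± 0.16 (SE, adjusted p = 5.2e-07). In these 3 genes both shSlpi-1 libraries lay below both control libraries, which the rule for naming them required. Scara5, a scavenger receptor that takes up ferritin, went from 68.5 and 97.0 to 21.2 and 26.0 (-1.75). Dmp1, an acidic phosphoprotein of bone and dentin matrix, went from 113 and 127 to 38.3 and 38.5 (-1.61). Egr2, a zinc finger transcription factor induced by growth factors, went from 93.8 and 97.0 to 32.3 and 29.1 (-1.61). The fall of the cytokine gene Tslp rested on many more reads. Tslp, which encodes thymic stromal lymphopoietin, an epithelial cytokine acting on dendritic and T cells, went from 1532 and 1582 to 647 and 583, a change of -1.34 ± 0.10 (SE, adjusted p = 2.3e-07). Man1c1, a mannosidase of N-glycan trimming, changed by -1.42 and the membrane skeleton gene Add2 by -1.55. The collagenase gene Mmp13 changed by -1.29 and the non-coding RNA of RNase MRP, Rmrp, by -1.36. Except for Rmrp (limma adjusted p = 0.098), these falls were also called with shSerpine2-1 against the same shRenilla libraries. With that hairpin Ace changed by -2.597, Cck by -1.602, Prl3d2 by -1.566, Dmp1 by -1.447 and Tslp by -1.341. Of these genes, only Prl3d2 differed between shSlpi-1 and shSerpine2-1 by limma (-1.265, adjusted p = 0.026). The part of Slpi in these falls was not tested.

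The largest rises among genes of at least 50 normalized reads included Krt14, Lars2, Serpinb5 and Fgfbp1. Krt14, the basal-cell keratin 14 (chr11:100203162-100207548), had 115 and 120.1 normalized reads with shRenilla and 347 and 284 with shSlpi-1, a change of 1.41 ± 0.12 (SE, adjusted p = 7.5e-07) by limma. Serpinb5, the serpin known as maspin, went from 162 and 131 to 315 and 293 (1.05 ± 0.12 SE, adjusted p = 2.6e-05). Fgfbp1, a secreted protein that binds and mobilizes fibroblast growth factors (chr5:43978858-43981779), went from 1425 and 1436 to 2843 and 2806 (0.98 ± 0.05 SE, adjusted p = 7.4e-09). These genes were higher in both shSlpi-1 libraries than in either control library, which the rule for naming them required, and the Fgfbp1 replicates lay closest together. Esrp1, an epithelial splicing regulator, went from 367 and 346 to 628 and 693 (0.89). Itgb6, the beta chain of an epithelial integrin that activates TGF-beta, went from 133 and 138 to 238 and 251 (0.85). Further rises were in Edn1, the vasoconstrictor endothelin 1 (1.03), in Mal, a lipid-raft protein of apical transport (1.00), in the sodium channel gene Scn3a (1.06), in Trim6 (0.88) and in Slc35f3 (0.84). Lars2, a mitochondrial leucyl-tRNA synthetase gene, went from 5977 and 7201 to 15038 and 14189 (1.15), but reads of ribosomal RNA can be placed on it, so its value is uncertain. In shSlpi-2, where Rn45s was highest, Lars2 had 73541 and 86522, and the part of ribosomal RNA in its rise was not tested. With shSerpine2-1 against the same shRenilla libraries, Krt14 (0.89), Serpinb5 (0.78), Fgfbp1 (0.75), Esrp1 (0.51) and Itgb6 (0.53) were also called higher. So were Mal (0.79), Scn3a (0.75) and Trim6 (0.62). Lars2, Edn1 and Slc35f3 were not called with that hairpin (limma adjusted p = 0.091, 0.081 and 0.97). By limma, Krt14, Fgfbp1, Esrp1 and Lars2 were higher with shSlpi-1 than with shSerpine2-1. The part of Slpi in these rises was not tested. The rises of Edn1 (adjusted p = 0.052 without shRenilla A), Trim6 (adjusted p = 0.054 without shRenilla B) and Slc35f3 (adjusted p = 0.054 to 0.23 with any of the 4 libraries left out) did not pass limma's threshold in each leave-out fit.

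**Figure D3:**
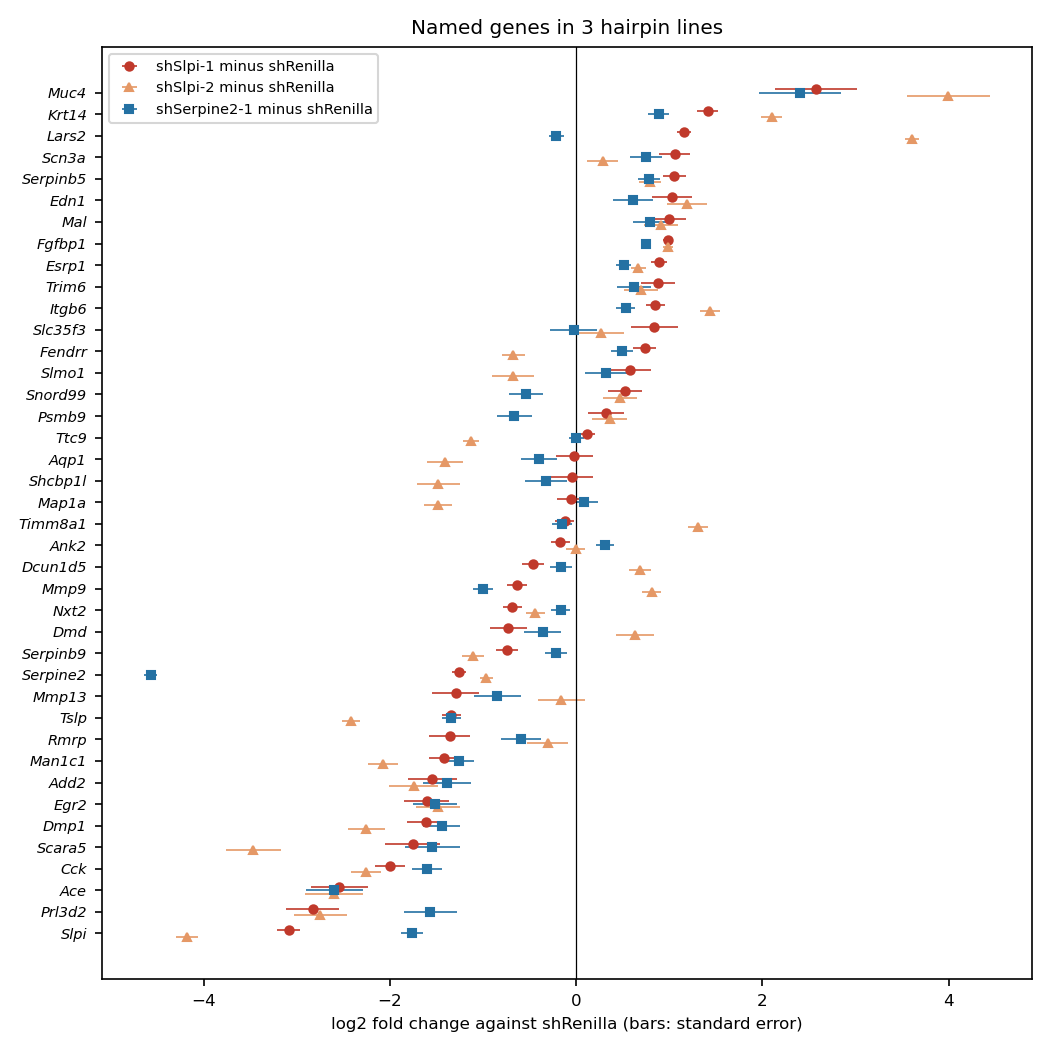
Log2 fold change against shRenilla (x axis, bars are standard errors) of the reported genes with the largest changes or differences between lines, with shSlpi-1 (circles), shSlpi-2 (triangles) and shSerpine2-1 (squares); all 3 series share the control libraries. Slpi lies lowest with shSlpi-1 at -3.09, and Mmp9, Dmd, Dcun1d5 and Fendrr lie on opposite sides of 0 for the Slpi hairpins.

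Of 7 tested genes of Slpi's own protein family and its partners, 2 rose and 3 fell, Slpi included. With any of the 4 libraries left out, 1 rose and 2 fell. Plscr4, a phospholipid scramblase whose family binds Slpi at the cell membrane, went from 424 and 431 to 274 and 282 normalized reads (-0.62 ± 0.10 SE, adjusted p = 4.1e-04 by limma). Grn, the progranulin gene, went from 3962 and 3886 to 3545 and 3397 (-0.18 ± 0.05 SE, adjusted p = 0.033). Anxa2, encoding annexin A2, a membrane protein that Slpi binds, went the other way, from 5537 and 5423 to 6611 and 6866 (0.30 ± 0.05 SE, adjusted p = 7.5e-04). Wfdc2, another secreted WAP protein, went from 5388 and 5615 to 7867 and 7128 (0.45). The Grn and Wfdc2 calls did not hold in any of the 4 leave-out fits, where the adjusted p was 0.22 for Grn and 0.053 for Wfdc2 without shSlpi-1 B.

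Other protease inhibitors moved in both directions, with 4 of 17 tested members higher and 5 lower, and 1 to 3 higher and 3 to 4 lower in the fits that each left out 1 of the 4 libraries. Besides Serpine2 and Serpinb5, Serpinb9, an intracellular inhibitor of granzyme B, went from 261 and 289.8 to 168 and 159 normalized reads (-0.75 ± 0.12 SE, adjusted p = 4.8e-04). Spint2, a membrane inhibitor of the proteases hepsin and matriptase, went from 1482 and 1486 to 1773 and 1909 (0.31). Proteases split evenly, with 8 of 36 tested members higher and 8 lower (6 and 5 to 6 in the leave-out fits). Mmp3, encoding stromelysin 1, went from 787 and 844 to 357 and 393 (-1.12 ± 0.08 SE, adjusted p = 2.1e-07), and Mmp9, encoding gelatinase B, from 335 and 329 to 197 and 232 (-0.64 ± 0.11 SE, adjusted p = 7.0e-04). Both metalloproteinases were below the controls in each shSlpi-1 library. In the other direction, Adamts1, a protease that cleaves proteoglycans such as versican, went from 1508 and 1462 to 2494 and 2808 (0.83 ± 0.06 SE, adjusted p = 2.1e-07), and the membrane metalloprotease gene Adam12 from 1549.8 and 1577 to 2128 and 2054 (0.42). The urokinase gene Plau, the enzyme that Serpine2 inhibits, had 3146 and 3071 against 2915 and 2839.5 and did not pass the test (adjusted p = 0.16). Spint2 was not called without shSlpi-1 B (adjusted p = 0.057).

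Epithelial genes rose more often than they fell. Of 42 tested genes of the epithelial list, 18 rose and 2 fell, and the median log2 fold change was 0.31, beside 0.0044 over all genes tested. Cdh1 itself changed by 0.38 ± 0.04 (SE, adjusted p = 2.6e-05), Epcam by 0.50 ± 0.05 (SE, adjusted p = 1.5e-05) and Krt7, a simple-epithelium keratin with 1991 and 1831 against 3138 and 3318 normalized reads, by 0.76 ± 0.06 (SE, adjusted p = 2.1e-07). Krt18, the partner of keratin 8, had 5494 and 5548 against 6104 and 5821 and did not pass (adjusted p = 0.18). An opposite change was seen in Cd24a, a surface glycoprotein of luminal cells, which went from 14048 and 15120.5 to 8825 and 6796 (-0.91 ± 0.08 SE, adjusted p = 2.1e-06). Library medians of the list against the same shRenilla libraries were 0.20 and 0.23 with shSerpine2-1 and 0.21 and 0.21 with shSerpine2-2. In these bulk libraries, more cells of a kind and more RNA per cell cannot be told apart. With a library left out, 15 to 18 members were called higher.

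Mesenchymal genes gave more falls than rises, as all genes did (9.88% lower and 7.65% higher). Of 21 tested members, 6 fell and 2 rose, with a median of -0.07. With 1 of the 4 libraries left out, 3 fell and 0 to 1 rose. Fgfr1, a fibroblast growth factor receptor, went from 327 and 355 to 128 and 153 normalized reads (-1.28 ± 0.12 SE, adjusted p = 3.8e-06). Pdgfra changed by -0.53 ± 0.10 (SE, adjusted p = 0.0013), and Zeb2, a repressor of E-cadherin, went from 4759.9 and 5225 to 4091 and 3949 (-0.31 ± 0.06 SE, adjusted p = 0.0016). Vim, encoding vimentin, had 69989 and 67096 against 64649.8 and 65712, and Zeb1 63.2 and 48.5 against 39.3 and 41.6. Neither passed the test (adjusted p = 0.35 and 0.26). Postn, the matrix protein periostin, rose from 14.7 and 9.92 to 42.3 and 23.9 (1.33), a gene of few reads that lost its call without shSlpi-1 A (adjusted p = 0.21) and without shRenilla B (adjusted p = 0.19).

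Most tested genes of mineralized matrix fell. Of 10 tested members, 7 fell and 0 rose, with a median log2 fold change of -0.53 and library medians of -0.52 and -0.53. No member was higher at an unadjusted limma p under 0.05 or with voom weights. Without the filter on low values, which lets weak members in, the median was 0. Library medians against the same shRenilla libraries were -0.40 and -0.43 with shSerpine2-1 and -0.34 and -0.27 with shSerpine2-2. Spp1, encoding osteopontin (chr5:104435118-104441050), a secreted integrin ligand, went from 23343 and 25626 to 11468 and 11261 normalized reads (-1.11 ± 0.05 SE, adjusted p = 6.8e-10). Phex, a membrane endopeptidase of phosphate metabolism, went from 1529.7 and 1593 to 994 and 863 (-0.75 ± 0.09 SE, adjusted p = 2.3e-05). Ank, a pyrophosphate transporter that restrains mineralization, went from 10319 and 10171 to 7102 and 6741 (-0.57 ± 0.05 SE, adjusted p = 9.1e-07). These 3 genes and Dmp1 were below the controls in both shSlpi-1 libraries. Mgp, matrix Gla protein, went from 114 and 118 to 61.5 and 63.5 (-0.88) and lost its call in each of the 4 leave-out fits.

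Secreted vascular factors did not move in a common direction: 8 of 37 tested members rose (5 without shRenilla A) and 9 fell. Tgfa, a ligand of the epidermal growth factor receptor, went from 3741 and 3676 to 2272 and 2359.8 normalized reads (-0.68 ± 0.05 SE, adjusted p = 2.1e-07). Angpt1, the Tie2 ligand angiopoietin 1, went from 297 and 306 to 154 and 157 (-0.95 ± 0.13 SE, adjusted p = 1.6e-04). In contrast to these falls, Cyr61, a matricellular protein that binds integrins, went from 4222 and 4153 to 6167 and 5774 (0.51 ± 0.05 SE, adjusted p = 3.1e-06). Vegfa, the main endothelial growth factor gene, had 827 and 782 against 741 and 726 and did not pass (adjusted p = 0.2). Of genes linked to vascular mimicry in the literature, 7 of 19 fell, Slpi and Serpine2 included, and 2 rose, beside 9.88% and 7.65% of all genes. In the leave-out fits 3 to 5 fell and 1 to 2 rose. Epha2, an ephrin receptor gene of that list, had 3153 and 2922 against 3095 and 2999 and did not pass (adjusted p = 0.96).

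Inflammatory targets of NF-kB included more falls than rises, 8 against 2 of 39 tested, Tslp among the falls, and 6 to 7 against 0 to 1 in the leave-out fits. Il33, an alarmin of the interleukin 1 family, went from 36.9 and 36.4 to 9.07 and 7.28 normalized reads (-2.04 ± 0.37 SE, adjusted p = 0.0015). Il11, an interleukin 6 family cytokine, went from 78.0 and 93.7 to 26.2 and 46.8 (-1.26 ± 0.26 SE, adjusted p = 0.003). Lcn2, encoding the siderophore-binding lipocalin 2, went from 56.9 and 54.0 to 13.1 and 9.36 (-2.22 ± 0.46 SE, adjusted p = 0.0036). All 3 are genes of low level in the clone. The more abundant Tnfaip2 went from 2329 and 2373 to 1692 and 1764 (-0.44 ± 0.06 SE, adjusted p = 8.8e-05), whereas Csf1, the macrophage growth factor gene, had 6151 and 6349 against 6218 and 6019 (adjusted p = 0.74). The feedback inhibitor gene Nfkbia had 200.2 and 231 against 241 and 173 (adjusted p = 0.76). The call for Il11 was lost without shSlpi-1 A (adjusted p = 0.052) and without shRenilla B (adjusted p = 0.058). Interferon-stimulated genes gave 5 rises and 6 falls of 52 tested, shares close to the 7.65% and 9.88% of all genes, or 2 to 3 and 1 to 5 with 1 of the 4 libraries left out. The class I antigen genes H2-K1 (3179 and 3170.0 against 3975 and 4046) and H2-D1 (6454 and 6300.3 against 7730.0 and 8152) rose by 0.34 and 0.32, although close copies of these genes can share reads. Oasl2, an antiviral gene, fell (-0.47).

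Feedback and immediate early genes of the ERK pathway, which report on growth factor signalling, were lower more often than higher. Of 42 tested, 15 fell and 5 rose, with a median of -0.15 and library medians of -0.11 and -0.18. Against the same shRenilla libraries, library medians were -0.10 and -0.17 with shSerpine2-1 and -0.078 and -0.084 with shSerpine2-2. Dusp6, the phosphatase that switches off ERK, went from 1720.4 and 1629 to 1024 and 996 normalized reads (-0.73 ± 0.07 SE, adjusted p = 3.2e-06). Its relative Dusp4 went from 719.6 and 798 to 532 and 490.1 (-0.57 ± 0.08 SE, adjusted p = 2.7e-04). Spred1, an inhibitor of Raf activation, went from 3094 and 3176 to 2449.7 and 2372 (-0.38 ± 0.05 SE, adjusted p = 8.5e-05). These inhibitors are themselves induced by ERK, as is the transcription factor gene Etv1, which went from 2429 and 2568 to 1885 and 1605 (-0.52). Egr1, an immediate early factor, went from 902 and 910.1 to 686 and 562 (-0.55 ± 0.09 SE, adjusted p = 9.2e-04). Falls numbered 13 when shRenilla A was left out, 9 for shRenilla B, 12 for shSlpi-1 A and 9 for shSlpi-1 B, and rises 1 to 3.

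Cholesterol and fatty acid synthesis genes gave the largest share of rises among the lists: 27 of 42 tested members rose and 0 fell, with a median log2 fold change of 0.21. No member was lower at an unadjusted limma p under 0.05 or with voom weights. The library medians were 0.21 for A and 0.22 for B. Against the same shRenilla libraries they were 0.18 and 0.19 with shSerpine2-1 and 0.28 and 0.24 with shSerpine2-2. Between shSlpi-1 and shSerpine2-1 the median difference of the list was 0.02, with 2 members called higher and 1 lower. These counts stand beside 1.5% higher and 2.04% lower of all genes. These enzymes are under common control by the sterol-sensing SREBP factors, and many of their promoters carry CCAAT boxes bound by NF-Y. Hmgcs1, the synthase that makes HMG-CoA, went from 2097 and 2161 to 2801 and 2909 normalized reads (0.42 ± 0.05 SE, adjusted p = 5.0e-05). Cyp51, the lanosterol demethylase, went from 4274 and 4229 to 5386 and 5657 (0.38 ± 0.05 SE, adjusted p = 1.4e-04). Scd2, a fatty acid desaturase, went from 32089.7 and 32669.5 to 42282 and 42596 (0.39 ± 0.05 SE, adjusted p = 5.7e-05). These folds were small. Fasn, the fatty acid synthase, had 6778 and 6452 against 7147 and 7072 and did not pass (adjusted p = 0.13). Rises numbered 17 when shRenilla A was left out, 12 for shRenilla B, 17 for shSlpi-1 A and 15 for shSlpi-1 B.

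The windows upstream of 2 of these genes are shown because members of the list moved together. They are the 250 bases before the gene's start, 5′ to 3′ on the gene's strand, from RefSeq (GRCm38.p6), and neither overlaps an annotated exon. Mvd, the decarboxylase of the mevalonate pathway, was chosen after its value was seen (0.64). Capitals mark CCAAT (either strand) in both windows and, in Hmgcs1 only, a match to the sterol element searched as TCACNCCAC (either strand).
Hmgcs1, chr13:119690101-119690350, plus strand: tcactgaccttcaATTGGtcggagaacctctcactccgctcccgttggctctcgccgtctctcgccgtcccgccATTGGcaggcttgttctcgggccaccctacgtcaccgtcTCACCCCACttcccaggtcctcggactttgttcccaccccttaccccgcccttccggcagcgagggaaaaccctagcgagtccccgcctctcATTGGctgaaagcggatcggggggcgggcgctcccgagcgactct
Mvd, chr8:122443423-122443672, minus strand: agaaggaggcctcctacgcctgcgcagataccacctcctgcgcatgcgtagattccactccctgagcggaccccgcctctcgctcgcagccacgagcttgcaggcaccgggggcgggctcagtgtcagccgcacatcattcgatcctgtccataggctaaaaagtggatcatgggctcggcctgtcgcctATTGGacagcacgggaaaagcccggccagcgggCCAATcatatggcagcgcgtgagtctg
CCAAT was present in 23 of the 32 tested members with a RefSeq window, 71.9%, against 34.5% of all 27025 windows of the same length. Those 27025 include genes that were not tested here. Members that changed held CCAAT in 14 of 19 windows, 73.7%, close to the share of the tested members. The sterol element as spelled was present in 1 of the 32, and in 1.04% of all windows.

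**Figure D4:**
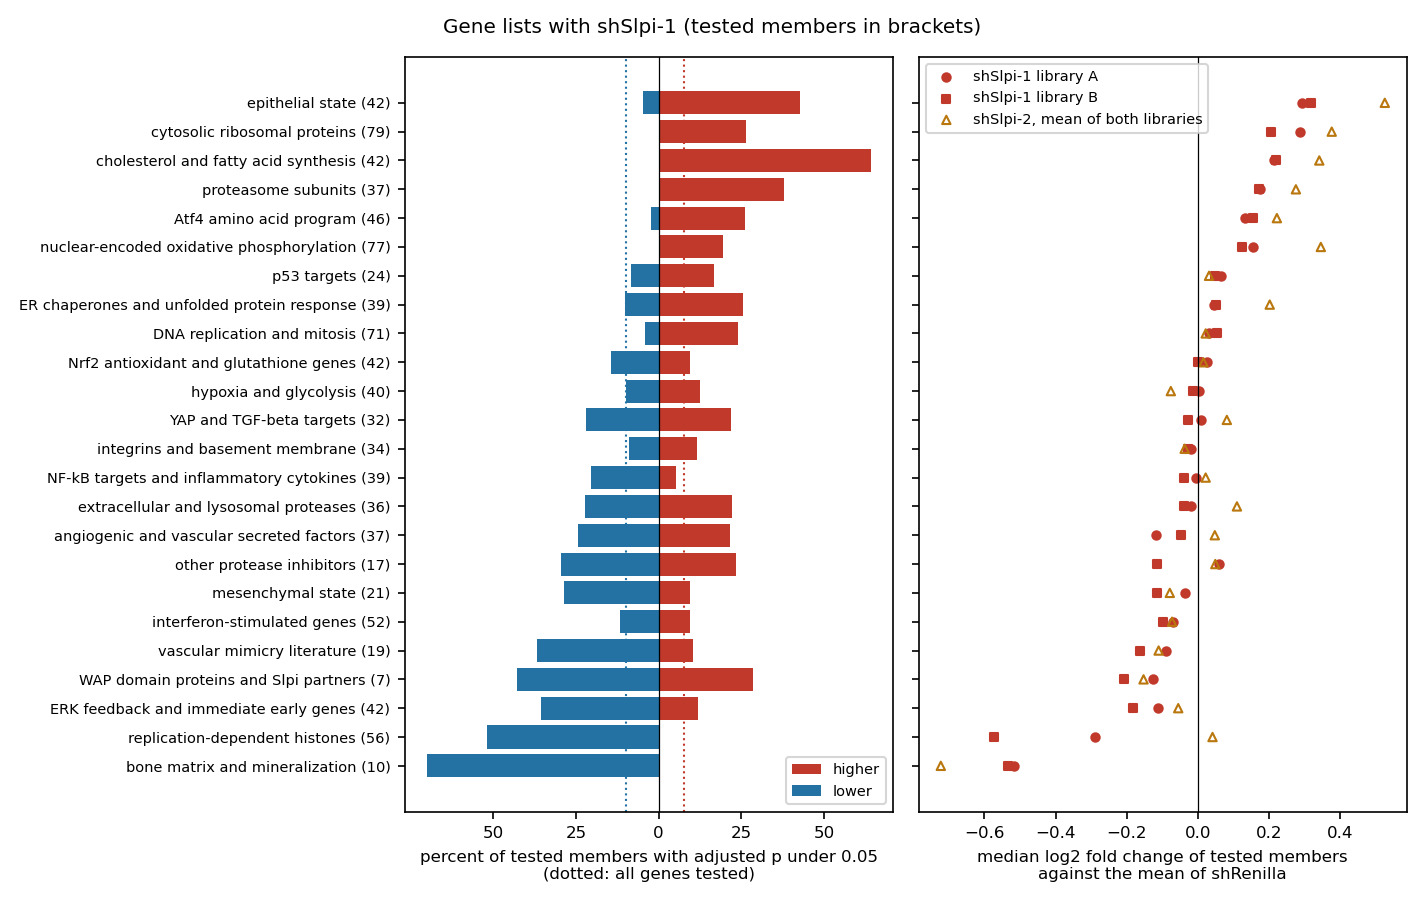
Left, percent of tested members of each gene list (number tested in brackets) with an adjusted p under 0.05, higher to the right and lower to the left, with dotted lines at the 7.65% and 9.88% of all genes; right, median log2 fold change against the shRenilla mean in each shSlpi-1 library and for shSlpi-2. Lipid synthesis genes have the longest bar to the right with 27 of 42 members, and among the lists drawn the histone medians lie farthest apart between the Slpi hairpins.

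Amino acid supply genes rose more often than they fell. Of the Atf4 program, in which this factor induces amino acid enzymes and transporters, 12 of 46 tested members rose and 1 fell, with a median of 0.17, and 5 to 9 rose in the leave-out fits. Asns, asparagine synthetase, went from 1452 and 1611 to 1878 and 1975 normalized reads (0.33 ± 0.06 SE, adjusted p = 0.0014). Slc7a5, a transporter of large neutral amino acids, went from 3262 and 3167 to 4172 and 3813 (0.31 ± 0.06 SE, adjusted p = 0.0011). Atf4 itself had 3363 and 3546 against 4013 and 3847 (adjusted p = 0.059). Library medians of the program against the same shRenilla libraries were 0.23 and 0.22 with shSerpine2-1 and 0.37 and 0.40 with shSerpine2-2. Endoplasmic reticulum genes gave 10 rises and 4 falls of 39, or 2 to 4 and 1 to 3 with 1 of the 4 libraries left out. Derl1, a component of protein retrotranslocation, went from 2586 and 2628 to 3088 and 3325 (0.30) and the oxidase gene Ero1l from 10461 and 10805 to 8652 and 8958 (-0.27). Hspa5, the main chaperone of that compartment, had 57455 and 54309.6 against 56240.3 and 57833 (adjusted p = 0.81).

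Cytosolic ribosomal protein genes gave 21 rises and 0 falls of 79 tested, with a median of 0.24. Rpl7 went from 2924 and 2979 to 4092 and 4078 normalized reads (0.47 ± 0.06 SE, adjusted p = 8.6e-05), and Rps12 from 846 and 818 to 1182 and 1208 (0.52 ± 0.07 SE, adjusted p = 6.5e-05). These genes have many processed copies in the genome that can share reads. Nuclear-encoded genes of oxidative phosphorylation gave 15 rises and 0 falls of 77, with a median of 0.14. Ndufv1, a complex I subunit, went from 432 and 393 to 614 and 574 (0.53 ± 0.08 SE, adjusted p = 3.4e-04), and Atp5g3, a subunit of the ATP synthase rotor, from 2780.3 and 2972 to 3608 and 3904 (0.38). Proteasome subunits gave 14 rises and 0 falls of 37, with a median of 0.17. Psmc1, an ATPase of the regulatory particle, went from 2142 and 2037 to 2644 and 2875 (0.40 ± 0.06 SE, adjusted p = 2.8e-04). Leaving out a library gave 7 to 11 ribosomal, 5 to 8 oxidative phosphorylation and 5 to 7 proteasome rises, and leaving out the shSlpi-2 libraries gave 54, 32 and 21 rises and 3, 5 and 0 falls. A fit to the shSlpi-1 and shRenilla libraries alone gave falls of 3, 4 and 0. At an unadjusted limma p under 0.05, 2 ribosomal, 2 oxidative phosphorylation genes and 1 proteasome gene were lower, and with voom weights 0 were called lower. Ribosomal and respiratory transcripts are short, with median exonic lengths of 1770 and 1756 bases, and the log2 fold change of all genes moved slightly with length. In 5 equal classes from the shortest to the longest of the 11563 genes with a known length, its median ran 0.067, 0.026, 0.0044, -0.012 and -0.040, and the part of length in these rises was not tested. Library medians of the proteasome list against shRenilla were 0.12 and 0.12 with shSerpine2-1 and 0.20 and 0.27 with shSerpine2-2. In the same order they were -0.025 and 0.058, and 0.14 and 0.27, for ribosomal genes. For oxidative phosphorylation they were -0.061 and 0.022, and 0.19 and 0.25.

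Replication-dependent histone genes, whose mRNAs are made in S phase and end in a stem-loop in place of a poly(A) tail, fell more often than they rose. Of 56 tested members, 29 fell and 0 rose, with a median log2 fold change of -0.44. None was higher at an unadjusted limma p under 0.05 or with voom weights. Against the same shRenilla libraries, library medians were -0.28 and -0.30 with shSerpine2-1 and -0.35 and -0.42 with shSerpine2-2. Between shSlpi-1 and shSerpine2-1, limma called 0 members in either direction, beside 1.5% higher and 2.04% lower of all genes. Hist1h2ae went from 131 and 128 to 83.7 and 82.2 normalized reads (-0.63 ± 0.14 SE, adjusted p = 0.0063). Hist2h4 went from 153 and 184 to 109.9 and 70.8 (-0.92 ± 0.20 SE, adjusted p = 0.0047), and Hist1h2bc from 528 and 553 to 443 and 378 (-0.40 ± 0.09 SE, adjusted p = 0.007). Both shSlpi-1 libraries were below both controls, but library B was further down than library A, with medians of -0.57 and -0.29. The control libraries also differed, by a median of 0.19 between B and A. The number of falls was 10 without shRenilla A, 1 without shRenilla B, 27 without shSlpi-1 A and 1 without shSlpi-1 B. Hist2h4 and Hist1h2bc were among the calls lost without shRenilla B (adjusted p = 0.088 and 0.087) and without shSlpi-1 B (adjusted p = 0.092 and 0.11). Histone copies are near-identical and can share reads.

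Cell-cycle genes outside the histones gave more rises than falls, beside 7.65% higher and 9.88% lower of all genes. Of 71 genes of DNA replication and mitosis, 17 rose and 3 fell, with a median of 0.04, and 7 to 8 rose in the leave-out fits. E2f1, a transcription factor of the S-phase program, went from 306 and 350.4 to 493 and 483 normalized reads (0.57 ± 0.09 SE, adjusted p = 5.7e-04), and Cdca8, the chromosomal passenger borealin, from 1538 and 1471 to 1969.8 and 2035 (0.41 ± 0.05 SE, adjusted p = 9.5e-05). Mki67, the proliferation marker, had 63371 and 67305 against 67024 and 67293 (adjusted p = 0.62).

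The upstream windows of 2 histone genes are shown with the motifs that were searched. Hist1h2ab (-0.57) and Hist1h3i (-0.57) were chosen after their values were seen, as called members whose 250 upstream bases hold no annotated exon. Capitals mark CCAAT on either strand, the TATA sequence TATAAA on either strand and, in Hist1h2ab, the octamer ATTTGCAT on either strand. The marks are not laid out alike. In Hist1h2ab TATAAA starts at -41 from the gene's start, after CCAAT at -97 and -78. In Hist1h3i it starts at -147, before CCAAT at -97 and -56.
Hist1h2ab, chr13:23750838-23751087, plus strand: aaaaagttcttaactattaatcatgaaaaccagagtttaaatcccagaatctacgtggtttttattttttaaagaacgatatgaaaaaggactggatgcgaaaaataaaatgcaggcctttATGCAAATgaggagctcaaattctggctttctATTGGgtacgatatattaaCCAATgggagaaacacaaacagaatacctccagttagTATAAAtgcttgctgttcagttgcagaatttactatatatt
Hist1h3i, chr13:21783398-21783647, minus strand: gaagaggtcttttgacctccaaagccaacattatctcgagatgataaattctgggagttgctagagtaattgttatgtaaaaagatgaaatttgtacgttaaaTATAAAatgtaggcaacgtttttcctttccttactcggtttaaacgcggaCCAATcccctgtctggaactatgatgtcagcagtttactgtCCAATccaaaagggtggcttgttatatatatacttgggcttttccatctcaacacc
Among 51 tested histone genes with a RefSeq window, 41 held CCAAT (80.4%, against 34.5% of all windows), 25 TATAAA (49.0%, against 13.0% of all windows) and 12 the octamer (23.5%, against 1.61%). Each motif was counted at any position of the window and on either strand, so these shares do not show a layout. Divergent pairs such as Hist1h2ae and Hist1h2bg lie back to back and share a window. The members that fell held CCAAT in 23 of 26 windows.

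**Figure D5:**
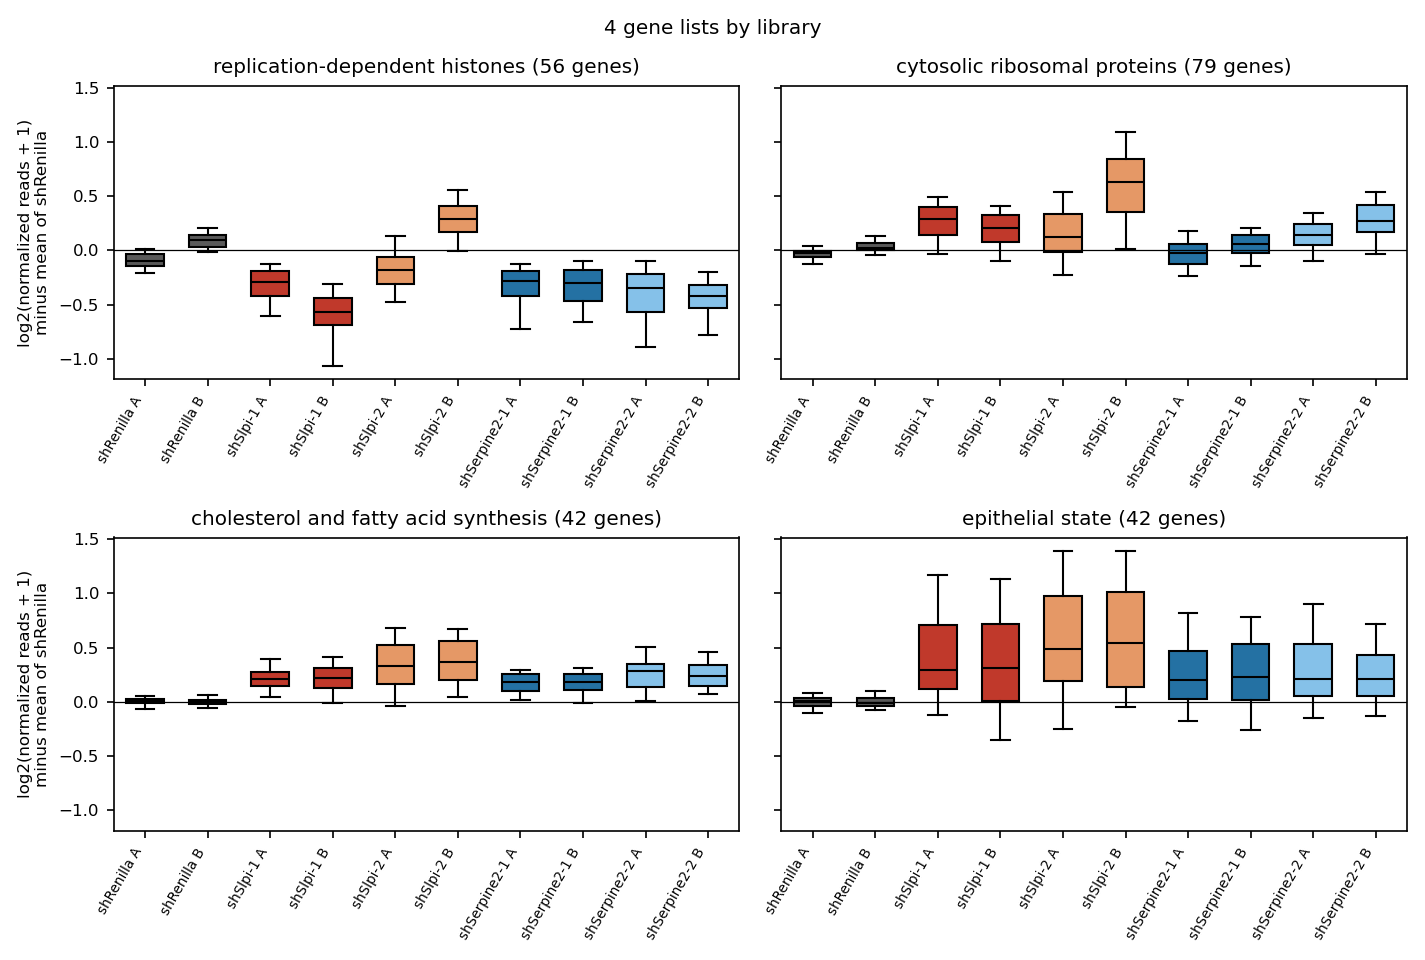
Log2(normalized reads + 1) minus the shRenilla mean for the tested members of 4 lists in the 10 libraries; boxes span the quartiles, the line is the median and whiskers reach the 5th and 95th percentiles. Histone medians are -0.29 and -0.57 with shSlpi-1 and -0.18 and 0.29 with shSlpi-2, while the lipid medians of both shSlpi-1 libraries lie at 0.21 and 0.22.

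The remaining lists were mixed, to be read beside the 7.65% higher and 9.88% lower of all genes. Targets of YAP and TGF-beta gave 7 rises and 7 falls of 32 (2 to 5 falls in the leave-out fits), with the matricellular gene Ctgf going from 846 and 874 to 1258 and 1286 normalized reads (0.56 ± 0.06 SE, adjusted p = 1.8e-05) and Ankrd1 at 2307 and 2262 against 2295 and 2254 (adjusted p = 0.95). Integrins and basement membrane genes gave 4 and 3 of 34, and the collagen receptor chain gene Itga2 went from 2992 and 2968 to 2374 and 2332 (-0.34 ± 0.06 SE, adjusted p = 7.1e-04). Hypoxia and glycolysis genes gave 5 and 4 of 40 (2 to 3 rises in the leave-out fits). Car9, a carbonic anhydrase induced by hypoxia, went from 2921 and 2842 to 2274 and 2318 (-0.33 ± 0.06 SE, adjusted p = 0.0013), while Bhlhe40, a transcriptional repressor, went from 1475 and 1560.2 to 1963 and 2103 (0.42). Nrf2 and glutathione genes gave 4 and 6 of 42, and 0 and 3 to 5 in the leave-out fits. Nfe2l2, which encodes Nrf2, went from 5266 and 5677 to 4042 and 3918 (-0.46 ± 0.06 SE, adjusted p = 6.5e-05), whereas its targets Hmox1 and Gclm did not pass (adjusted p = 0.58 and 0.12). Of p53 targets, 4 rose and 2 fell of 24 (2 to 3 and 1 in the leave-out fits), and Cdkn1a, the cell-cycle inhibitor p21, had 477 and 551 against 472 and 478 (adjusted p = 0.53). No member of the endothelial or leukocyte lists was called by limma, where an unadjusted p under 0.05 gave 1 endothelial gene in each direction and 0 leukocyte genes, and voom weights called 0. Without the shSlpi-2 libraries 1 endothelial gene was called lower.

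The difference between the hairpins of the same target was tested directly. It was called for 3204 genes (26.1%), 1687 higher (13.7%) and 1517 lower (12.3%) with shSlpi-1 than with shSlpi-2, and for 121 genes (0.984%) by 2-fold or more. The structural gene Map1a, a neuronal microtubule protein, had 118 and 147 normalized reads with shSlpi-1, 45.4 and 51.1 with shSlpi-2 and 137 and 137 with shRenilla (difference 1.43 ± 0.15 SE, adjusted p = 6.9e-06 by limma). Aqp1, a water channel, had 132 and 104, 34.8 and 55.9 and 122 and 116 in the same order (difference 1.39 ± 0.20 SE, adjusted p = 1.1e-04). Ttc9 had 499 and 503, 204 and 217 and 474 and 448 (difference 1.25 ± 0.08 SE, adjusted p = 7.6e-08), and Timm8a1, a mitochondrial import chaperone, had 716 and 520.2, 1626 and 1672 and 681 and 651 (difference -1.43 ± 0.10 SE, adjusted p = 1.8e-07). For these 4 genes shSlpi-1 against shRenilla did not pass the test (adjusted p = 0.84, 0.96, 0.36 and 0.46), and shSlpi-2 against shRenilla did. Mmp9 moved in opposite directions, lower with shSlpi-1 and higher with shSlpi-2 at 619.6 and 548 (difference -1.44 ± 0.11 SE, adjusted p = 1.8e-07). The long non-coding RNA Fendrr rose from 151 and 138 to 234 and 248 with shSlpi-1 and was at 84.1 and 95.6 with shSlpi-2 (difference 1.41 ± 0.12 SE, adjusted p = 9.4e-07). The mucin gene Muc4 was high with both, at 52.4 and 32.3 and 111 and 113, against 3.2 and 11 in the control. Muc4 was also higher with shSerpine2-1, at 42.3 and 31.3 (2.40 against shRenilla, limma adjusted p = 0.0024), and stood at 0.878 and 2.30 with shSerpine2-2.

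Between the hairpins, histones had the largest median difference of the lists with 7 or more tested members: 36 of 56 were lower and 0 higher with shSlpi-1, with a median difference of -0.51, and with shSlpi-2 1 rose and 0 fell against shRenilla (median 0.04), beside 20.4% and 21.9% of all genes. The shSlpi-2 libraries themselves lay apart, at -0.18 and 0.29. Genes of the epithelial list gave 17 members lower and 0 higher with shSlpi-1, lipid synthesis 18 lower and 2 higher, and bone matrix 7 higher and 0 lower. At an unadjusted limma p under 0.05, 1 epithelial gene was higher, 2 bone matrix genes were lower and 0 histones were higher, and voom weights called 1, 1 and 0. Their medians against shRenilla, which shares its libraries between these comparisons, were 0.31 with shSlpi-1 and 0.52 with shSlpi-2 for epithelial genes, 0.21 and 0.34 for lipid synthesis and -0.53 and -0.72 for bone matrix. Spp1, for example, had 11468 and 11261 normalized reads with shSlpi-1 and 7154 and 7443 with shSlpi-2 (difference 0.64 ± 0.05 SE, adjusted p = 2.8e-07). Tslp had 647 and 583 against 252 and 334 (difference 1.08 ± 0.10 SE, adjusted p = 2.0e-06), and Krt14 347 and 284 against 544 and 471 (difference -0.69 ± 0.12 SE, adjusted p = 4.9e-04). Fgfbp1 was at 2843 and 2806 and 2732 and 2929.7, and the difference did not pass (adjusted p = 0.98). Under reads-per-million scaling, which counts the Rn45s reads, the split of this comparison became 3087 higher and 737 lower, and leaving Rn45s out gave 1972 and 1280.

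Against shSerpine2-1, a line with another target, fewer genes differed: 436 (3.55%), with 185 higher (1.5%) and 251 lower (2.04%) in shSlpi-1, and 10 (0.0813%) by 2-fold or more. Scaling to reads without Rn45s turned that balance to 302 higher and 105 lower, and quantile normalization to 172 and 92. Both targets differed. Serpine2 was higher with shSlpi-1 (3.31 ± 0.07 SE, adjusted p = 9.0e-15) and Slpi lower (-1.33 ± 0.12 SE, adjusted p = 1.4e-05). Among genes of at least 50 normalized reads whose groups do not overlap, further differences named by size were in Psmb9, an immunoproteasome subunit with 94.8 and 74.9 normalized reads against 39.0 and 45.3 (0.99 ± 0.19 SE, adjusted p = 0.012), in the small nucleolar RNA Snord99 (1.06), in Lars2 (1.37), in Serpinb9 with 168 and 159 against 238 and 235 (-0.53 ± 0.12 SE, adjusted p = 0.026), in the nuclear export factor Nxt2 (-0.52) and in the ankyrin gene Ank2 (-0.48). With shRenilla, Psmb9 had 65.3 and 69.4 normalized reads. Against shRenilla it did not pass with shSlpi-1 (limma adjusted p = 0.27) and was lower with shSerpine2-1 (-0.67, adjusted p = 0.033). Snord99 and Ank2 did not pass in shSlpi-1 against shRenilla either (adjusted p = 0.059 and 0.27). Tslp was at 647 and 583 and 618 and 609.5, and Spp1 at 11468 and 11261 and 11751 and 11583. The count was unstable: it was 138 without shSlpi-1 A, 18 without shSlpi-1 B, 10 without shSerpine2-1 A, 26 without shSerpine2-1 B and 1784 without the shSlpi-2 libraries.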

How the data were processed

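RNA-seq values of 10 libraries in 5 groups of 2 were used, grouped by the sample titles. Per the labels' protocols, total RNA was purified on columns with DNase, amplified from 100 ng with NuGEN Ovation RNA-Seq V2, sheared to about 200 bp and read for 76 bases. The amplification starts from total RNA, so ribosomal RNA and transcripts without a poly(A) tail are read too. The submitters' processing notes name the tools Bowtie2, HTSeq and DESeq, which the authors used, and the build mm10. For versions, annotation, filters and strand, the answer is not given in the sources used here, so antisense and overlapping genes cannot be told apart.

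The authors deposited log2 values for 23479 gene entries. Their lowest value is 6.73 in all columns, and they have the form that the authors' tool DESeq, as the submitters name it, gives for the variance-stabilizing transformation. The transformation was inferred, not stated, and was inverted to normalized reads. In each library 100% of the inverted values were whole multiples of 1 read, within 0.01 reads, which gave the depths. Genes with a mean of at least 10 normalized reads (12299) were tested with limma 3.58.1 in R 4.3.3 on log2(normalized reads + 1), with eBayes and a trend, 5 group means and Benjamini-Hochberg adjustment, two-sided, at an adjusted p under 0.05. A pseudocount of 1 understates the change of low genes. The method was tested on simulated data. With 2 libraries per group, the spread is estimated from all 5 groups.

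Named genes are both targets, the 12 largest rises and falls among called genes of at least 50 normalized reads whose groups do not overlap, up to 4 called members with the smallest p and fixed key members of each of the 27 gene lists, the 6 largest differences each way from shSlpi-2 and the 4 largest each way from shSerpine2-1. Some genes this rule names are not reported here. The members and lists were chosen with earlier results of these data known. Lists are described by counts and medians, with no set test. Gene positions are from GENCODE M21 (GRCm38, which is mm10), and upstream windows from RefSeq.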

Additional observations from a re-analysis of the deposited data

Results flagged for a closer look

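For 31 genes, both Slpi hairpins gave a called change against the shared shRenilla libraries, in opposite directions, and the difference between the hairpins was itself called by limma. Of these, 10 were higher with shSlpi-1 and lower with shSlpi-2, and 21 showed the reverse. The named genes among them are given as shSlpi-1 minus shSlpi-2 on the log2 scale. Mmp9 differed by -1.44 ± 0.11 (SE, adjusted p = 1.8e-07) by limma, with 197 and 232 normalized reads in the shSlpi-1 libraries, 619.6 and 548 in the shSlpi-2 libraries and 335 and 329 in the shRenilla libraries. Dmd, the dystrophin gene, differed by -1.36 ± 0.20 (SE, adjusted p = 1.6e-04), with 33.3 and 39.5, 95.7 and 93.7 and 55.8 and 66.1 in the same order. Dcun1d5, of the neddylation pathway, differed by -1.15 ± 0.12 (SE, adjusted p = 6.9e-06), with 951 and 656, 1824 and 1682 and 1094 and 1088. Fendrr, a long non-coding RNA, was the named gene that differed in the other direction, by 1.41 ± 0.12 (SE, adjusted p = 9.4e-07). Tnc, encoding the matrix protein tenascin C, differed by -0.50 ± 0.07 (SE, adjusted p = 6.3e-05), with 911 and 935, 1392 and 1229 and 1099.9 and 1117. The histone gene Hist1h2ak differed by -0.81 ± 0.10 (SE, adjusted p = 4.4e-05), with 923 and 722, 1317 and 1563 and 1049 and 1176.

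Some of these changes against shRenilla rest on single libraries. The fall of Tnc with shSlpi-1 was not called in any leave-out fit (adjusted p = 0.053 to 0.097), and that of Dmd was not called without shSlpi-1 A (adjusted p = 0.13) or shRenilla B (adjusted p = 0.16). Dcun1d5 lost its call without shSlpi-1 B (adjusted p = 0.21), shRenilla A (adjusted p = 0.085) or shRenilla B (adjusted p = 0.099), and Hist1h2ak without shSlpi-1 B (adjusted p = 0.14) or shRenilla B (adjusted p = 0.12).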

How the results depend on the processing

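The alternatives were another pseudocount, other filters and scalings, the deposited log2 values, voom weights, other sets of libraries in the fit and each library left out. A gene that an alternative did not test, such as Prl3d2 under the filter of 50 normalized reads, is counted as not called in it. The 573 genes called throughout were counted in the same way. Slpi fell in each of the 16 alternatives, by 2.17 on the log2 scale with the deposited log2 values, which compress low levels, to 3.16 on that scale. Of 134 called genes among the 175 named, 93 were called in every alternative, and none changed direction while called. Without each library in turn, shSlpi-1 against shRenilla gave 814 to 1258 genes changed, 347 to 473 higher and 467 to 785 lower. Against shSlpi-2 these ranges were 1539 to 3942, 831 to 2013 and 708 to 1929, and against shSerpine2-1 they were 10 to 138, 9 to 49 and 1 to 89. In a fit that leaves 1 library in a group, that library is assumed to vary like the others. Against shRenilla, leaving out the shSlpi-2 libraries gave 3323 genes changed and 1507 higher, and keeping only the shSlpi-1, shSlpi-2 and shRenilla libraries gave 1320, with 548 higher and 772 lower. Against shSerpine2-1, leaving out the shSlpi-2 libraries gave 1784 genes, 732 higher and 1052 lower. For that comparison, testing genes without a filter gave 20, 19 higher and 1 lower, and quantile normalization gave 264 with 92 lower. Its lower genes numbered 141 under reads-per-million scaling, and the same scaling without Rn45s gave 302 higher and 105 lower. Against shSlpi-2, reads-per-million scaling gave 3087 higher and 737 lower, and testing without a filter gave 1367 higher and 1953 lower. The cause of these shifts was not tested. The median of 11 gene lists changed side of 0 or became 0 in 22 fits; that of the bone matrix list was 0 without a filter. Chosen after seeing the data were scaling without Rn45s in each comparison, reads-per-million scaling against shSlpi-2 and shSerpine2-1, the fit to 6 libraries against shRenilla, and leaving out the shSlpi-2 libraries against shSerpine2-1.

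A fit with the letter as a replicate block gave 2145 genes changed against shRenilla, 942 higher and 1203 lower, 3186 against shSlpi-2 and 422 against shSerpine2-1. Deviations from the group mean correlated between same-letter libraries at -0.073 to 0.072 over the 10 pairs of groups, and the letters were not used as pairs in the main fit. Such weak correlations cannot tell whether libraries of a letter were prepared together.

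The depth of 16686493 to 17920147 reads limits weak genes: entries below the filter took at most 0.106% of the reads of the 4 libraries, and a change of a gene near 10 normalized reads could not be measured well.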
